A study of Caenorhabditis elegans with 12 samples.

Results

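The col genes are the numbered collagen genes of the nematode Caenorhabditis elegans, and nearly all of them encode collagens of the cuticle, the extracellular coat of the animal. A col gene was included where a probe set of the array named that gene alone in the platform's annotation, and a gene with several such probe sets was represented by the brightest. This gave 128 col genes out of 17118 genes with a probe set of their own, from 144 col probe sets. A further 17 probe sets that match a col gene list several genes and were left out, as for the pair col-12 and col-13, so col-13 is not among the 128.

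Cuticle collagens are secreted by the hypodermis, the epidermis of the worm, and are assembled on its outer surface, beneath the old cuticle, into a new cuticle at each moult. Their chains carry Gly-X-Y repeats, are hydroxylated by prolyl 4-hydroxylases in the endoplasmic reticulum, wind into triple helices, and are then processed and cross-linked on the way to the cuticle. Many of these genes are switched on and off in waves within each moulting cycle, and some are used at 1 stage only: col-19 is known as a collagen of the adult cuticle, and col-2 as one of the dauer larva, a resting stage. The RefSeq gene table used for names places several col genes next to each other on their chromosome.

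Whole-transcriptome signals came from 12 single-colour arrays, each hybridised with biotinylated cRNA made from total RNA of tissue lysates. The HLH strain carried egl-15::gfp together with pHS::hlh-8, pHS::hlh-2 and pRF4, in which hlh-8 is the nematode Twist gene, hlh-2 encodes its E protein partner and pHS is the labels' own prefix for both constructs. The marker strain carried egl-15::gfp and pRF4 only, so the reporter and pRF4 were common to all arrays. Per the labels pRF4 is a transformation marker, and as background this plasmid carries a dominant allele of the cuticle collagen gene rol-6. By the design text, 3 biological replicates of each strain were heat shocked or left unheated. Each array's title names its set (1, 2 or 3) and its code. The HLH strain was hybridised under codes 1 and 2, the marker strain under codes 3 and 4, and every code has 3 arrays. The labels do not say which codes were heated, nor the age or stage of the animals, so values are given by code, and no array is called heated. The code 2 array titled 2_2 (2) bears the same set number as another code 2 array, and set 3 has no array of code 2, so its set was treated as uncertain. Below, a gene's 3 arrays of a code are given in the order of sets 1, 2 and 3, with the array titled 2_2 (2) as the last of code 2.

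Values are MAS5 signals, the authors' array intensities on a linear scale, which had been scaled to the same trimmed mean on every array. Tests used log2 signals after values under 16.7 were raised to that floor, and differences are given in log2 units ± SE of the limma fit. Testing was limited to probe sets that exceeded the median of their array on at least 3 of 12 arrays, which held for 12328 probe sets and for the brightest probe set of 78 of the 128 col genes. A call is an adjusted p under 0.05 after Benjamini-Hochberg adjustment over all tested probe sets of the comparison. The number of arrays limits the precision, and RNA of whole lysates cannot tell fewer hypodermal cells from less RNA per cell.

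Markers of the hypodermis were well represented. All 10 listed markers passed the filter, and the signal of dpy-7, a cuticle collagen gene of the hypodermis, lay between 1492 and 3344. Yolk protein genes, which mark the adult hermaphrodite intestine, were low: 1 of 5 measured passed the filter, vit-6 with 158 to 534, and vit-2 lay between 1.4 and 12.8, under the floor on all arrays. Of the sperm markers 2 of 8 passed, and of the oocyte and germline markers 9 of 14.

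Single signals of the col genes ran from 3.9 to 20596, and 4 classes of mean signal were set apart. Probe sets differ in their efficiency, so the order of genes by signal is not an order of transcript amount. The very high class held 17 genes with a mean of 5000 or more, the high class 25 genes from 1000 to 5000, and the moderate class 36 genes under 1000 that passed the filter. The other 50 genes did not pass and are called dim. Of these 50, 21 were at or under the floor on at least 1 array, and col-86 was so on all of them.

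**Figure D1:**
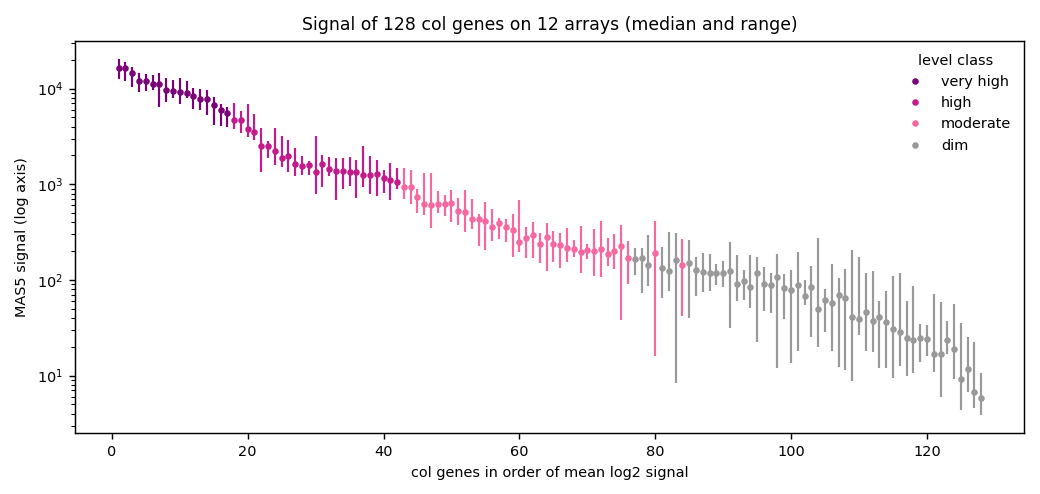
MAS5 signal (log axis) of the 128 col genes on 12 arrays, in the order of their mean log2 signal, with a point for the median and a line from the lowest to the highest array, coloured by level class. The lines of the very high genes are short, with a median ratio of 1.64 between the highest and the lowest array, and many lines of dim genes span a far wider ratio.

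The brightest gene by mean signal was col-125. Its signals were 17319, 12474 and 13459 at code 1, 18302, 13618 and 15066 at code 2, 17896, 14231 and 18053 at code 3 and 18868, 15455 and 20596 at code 4. The codes overlapped, and within each code the array of set 2 was the lowest. The next by mean signal were col-93, col-17, col-43, col-73, col-119, col-145 and col-160. Among the 17 very high genes the highest array was 1.46 to 2.27 times the lowest.

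The bright end of the family was measured mostly by probe sets that are not specific to 1 transcript. Of the 17 very high genes 13 were represented by a probe set of the _x_at type, in which some probes can match other transcripts, and 1 by the _s_at type, whose probes match several transcripts. Among the 36 moderate genes these types numbered 2 and 12, and among the 50 dim genes 0 and 12. Col genes have similar repeat sequences, and the share of signal that came from relatives was not tested.

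Both genes introduced above as used at 1 stage were dim. The adult gene col-19 had 18 to 145 with a median of 57.2, and the dauer gene col-2 had 8.4 to 311 with a median of 161. The signal of col-12, a cuticle collagen gene, lay between 6146 and 10075, with a median of 8320.3, in the very high class. The gene col-99 encodes a transmembrane collagen and not a cuticle collagen, although its name follows the rule. It was moderate, at 170 to 404.

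For 16 of the 128 genes 2 probe sets named the gene alone, and for several the pair differed in signal. The mean signal of col-119 was 11200 on the brighter and 357 on the other probe set. That of col-157 was 9279 and 102, and that of col-149 was 1298 and 16.7, the floor. In contrast, col-147 had means of 9410 and 9261, and col-93 had 15764 and 15094. The class of a gene therefore rests on which probe set was read.

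The first comparison asked whether any col gene differed between the codes of a strain, which by the design hold heated and unheated animals. None did at this number of arrays. In the HLH strain 0 of 78 col genes were called between code 2 and code 1 by limma, against 0.0406% of all tested probe sets, and 2 of 78 had an unadjusted p under 0.05. In the marker strain 0 of 78 were called between code 4 and code 3, against 0.0568% of all, and 1 had an unadjusted p under 0.05. In the same fits inducible heat shock genes were called, 2 of 3 tested between codes 2 and 1 and 3 of 3 between codes 4 and 3, all higher at the higher code number.

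The differences of the col genes were centred near 0 in both strains. The median difference between code 2 and code 1 was 0.03 over the 78 genes and -0.01 over all tested probe sets, with 43 genes above 0 and 35 below. Between code 4 and code 3 the median was 0.06 against 0 over all, with 53 genes above 0 and 25 below. The 95% interval of the difference lay within 2-fold either way for 68 of 78 genes in each strain, and within 1.5-fold for 33 genes in the HLH strain and 26 in the marker strain. For the other genes the interval ran past these limits, so a difference of that size was not excluded.

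The smallest p between codes 2 and 1 belonged to col-165, a moderate gene of the cuticle family. Its signals were 41.8, 70 and 142 at code 1 and 256, 208 and 268 at code 2. They were 256, 49.2 and 145 at code 3 and 166, 120.5 and 145 at code 4. The codes of the HLH strain did not overlap, while code 3 alone covered nearly the whole range. How many of all tested probe sets had codes 1 and 2 apart in this way was not counted. The difference between code 2 and code 1 was 1.70 ± 0.55, with an adjusted p of 1 in limma.

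The next was col-97, a bright gene. Its signals were 3441, 4326 and 3149 at code 1 and 5296, 6856 and 3685 at code 2, and they lay between 3375 and 4023 in the marker strain. Code 2 was above code 1 on the arrays of sets 1 and 2, and its array titled 2_2 (2) lay within code 1. The difference was 0.50 ± 0.21 with an adjusted p of 1 in limma. With the set number as a block, which leaves out the array titled 2_2 (2), it was 0.67 ± 0.14 with an adjusted p of 0.19, again not called. Without the block, the second probe set of col-97 gave a smaller difference of 0.14 ± 0.21.

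In the marker strain col-130 had the smallest p. Its signals were 1296.5, 610.4 and 939.9 at code 3 and 538, 485.5 and 741 at code 4, and the codes overlapped. The difference was -0.65 ± 0.27 with an adjusted p of 1 in limma. In the HLH strain the same gene had 643, 480.0 and 590.2 at code 1 and 794, 851 and 534.5 at code 2, a difference of 0.33 ± 0.27. The other genes with the smallest p were col-146 (0.23) and col-160 (0.25) between codes 2 and 1, and col-133 (0.32), col-76 (0.33) and col-48 (0.36) between codes 4 and 3, each with an adjusted p of 1 in limma.

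Whether a code difference had another size in the other strain was asked under both possible matchings of the codes, taking the larger p. None of the 78 col genes was called and none had an unadjusted p under 0.05, against 0% called and 11 probe sets with such a p among all tested. With the set number as a block none of the 78 was called in this test, in the HLH strain or in the marker strain, against 0%, 0.0487% and 0.154% of all tested probe sets, and 2, 10 and 5 had an unadjusted p under 0.05.

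The second comparison set the 6 arrays of the HLH strain against the 6 of the marker strain. The gene col-113 was higher in the HLH strain, and col-39 and col-147, all of the cuticle collagen family, were lower. These 3 of 78 are 3.85%, against 2.72% of all tested probe sets called, 1.13% higher and 1.59% lower, so the share was near the background. The median difference of the 78 genes was -0.07, with a range from -0.74 to 1.06, and that of all tested probe sets was 0.05.

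The signals of col-113 were 2391, 2629 and 1376 at code 1 and 2595, 3168 and 1469 at code 2 of the HLH strain. In the marker strain they were 1295, 1008 and 979 at code 3 and 1162, 1092 and 784 at code 4. Every HLH array was above every marker array, as for 1.48% of all tested probe sets, and within the HLH strain the set 3 array of code 1 and the array titled 2_2 (2) were below the others. The difference was 1.06 ± 0.21, a ratio of 2.09 (limma, adjusted p 0.019). Within sets 1, 2 and 3 it was 1.02, 1.46 and 0.65. The call was lost without the set 1 array of code 1 (adjusted p 0.059), the set 1 array of code 2 (0.059), the set 2 array of code 1 (0.054), the set 3 array of code 4 (0.05) or all arrays of set 2 (0.066).

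For col-39 the signals were 1691, 1624 and 1908 at code 1 and 1501, 1750.1 and 1674 at code 2. They were 3013, 1871 and 2702 at code 3 and 2871, 2713 and 3206 at code 4. The strains overlapped through 1 marker array, that of set 2 at code 3. The difference was -0.67 ± 0.13 with an adjusted p of 0.013 in limma, and it was called whichever array was left out.

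The signals of col-147 were 8724, 6950.3 and 8311 at code 1 and 8586, 7219 and 8267 at code 2. They were 11162, 9522 and 11596 at code 3 and 13033, 9852 and 11792 at code 4. No HLH array reached the lowest marker array, as for 1.7% of all tested probe sets. The difference was -0.48 ± 0.10 with an adjusted p of 0.029 in limma, and the gene's second probe set gave -0.52 with an adjusted p of 0.014. It was not called without the set 2 or set 3 array of code 1 (adjusted p 0.076 and 0.053), the set 1 or set 2 array of code 2 (0.055 and 0.081), the set 1 or set 3 array of code 3 (0.069 and 0.057) or the set 1 or set 3 array of code 4 (0.077 and 0.065).

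**Figure D2:**
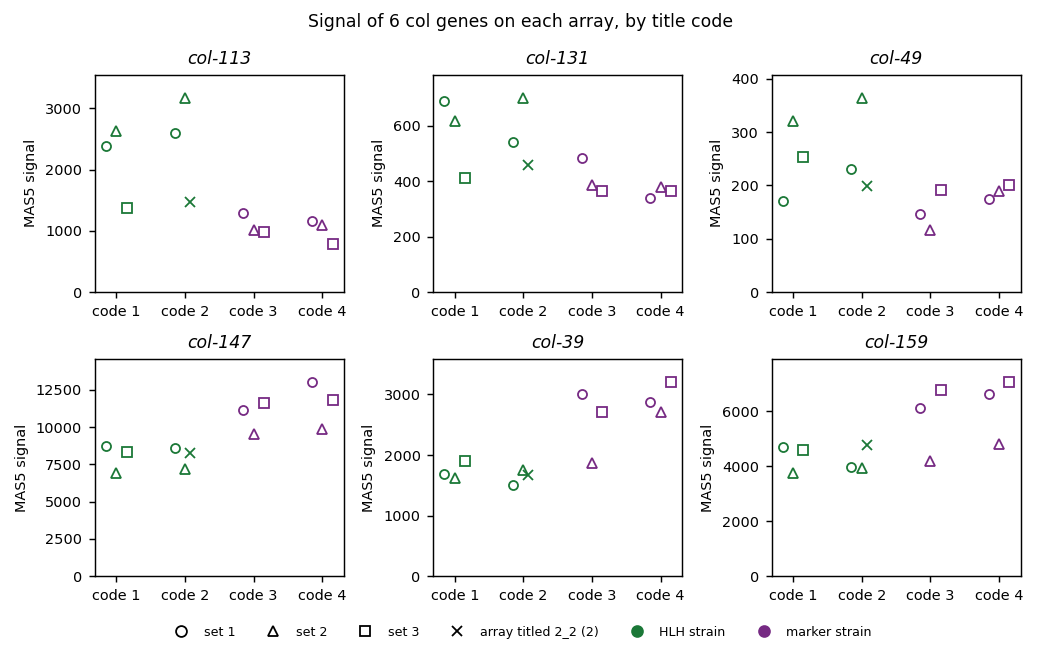
MAS5 signal of col genes on the 12 arrays, for the 3 genes with the smallest p in each direction under the set block, by code, with green symbols for the HLH strain, purple for the marker strain and a symbol shape for each set. The arrays of col-113 lie higher in the HLH strain with no overlap between the strains, those of col-147 lie lower with no overlap, and those of col-39 overlap through 1 array.

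Arrays with the same set number deviated together, so the comparison was repeated with the set as a block. Then 15 of 78 col genes were called (19.2%), 5 higher and 10 lower in the HLH strain, against 14% of all tested probe sets, 6.78% higher and 7.26% lower. The 3 genes above were among them. The genes called higher were col-113, col-131, col-49, col-174 and col-97, with differences from 0.31 to 1.13. The genes called lower were col-147, col-39, col-159, col-160, col-146, col-156, col-93, col-133, col-157 and col-91, with differences from -0.65 to -0.25. All of these but col-39, col-156 and col-91 were read by _x_at probe sets, so some may share signal, which was not tested. Quantile normalization was run without the block only. There it moved col-93 from -0.27 to -0.11 and col-157 from -0.29 to -0.11, while col-39 went from -0.67 to -0.65. Over all 78 tested genes, with none selected, 11 were higher in every set and 21 were lower in every set, against 26.4% and 17.9% of all tested probe sets. Of the 15 genes, col-97 did not keep 1 sign: its strain difference was 0.10, 0.59 and -0.11 within sets 1, 2 and 3.

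Without the block, further genes lay close to the threshold. The strain difference was -0.57 for col-156 (adjusted p 0.076 in limma) and 0.54 for col-131 (0.083). The neighbours col-159 and col-160 lay lower in the HLH strain within each set, col-159 by -0.56, -0.23 and -0.59. Of the hypodermis markers 1 of 10 was called between the strains, rol-6 with a difference of 1.05 ± 0.13 (adjusted p 0.00078), and rol-6 is the gene carried by the marker plasmid of both strains. The summed signal of the 10 markers was 30605 to 36150 in the HLH strain and 23162 to 27404 in the marker strain. Without rol-6 it was 18966 to 20918 and 17580 to 21605, which overlap. None of the 8 intestine and 7 body wall muscle markers tested was called, but their median differences were -0.31 and -0.26, against 0.05 over all tested probe sets. The summed signal of the intestine markers was 39677 to 53662 in the HLH strain and 45319 to 68273 in the marker strain, and that of the muscle markers was 32308 to 38539 and 36315 to 47933. The part of these levels in the strain differences of the col genes was not tested.

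The third comparison asked how the col genes differed between the 3 sets, over 11 arrays without the one titled 2_2 (2) and with the code in the fit. Of the 78 genes 30 were called for any difference between sets (38.5%), against 40.1% of all tested probe sets. The share was thus that of the background. Of the 30, 25 had their lowest level in set 2. The share of all called probe sets with set 2 lowest was not counted. Of the 25, 10 were very high genes, and bright probe sets in general were lower in set 2, as given below. Sets 1 and 3 differed in far fewer genes, as given next.

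Between set 2 and set 1, 25 col genes were lower in set 2 and 4 were higher, by limma. Of all tested probe sets 33.1% were called, 13.9% lower and 19.2% higher. The median difference was -0.20 over the 78 genes and 0.04 over all tested probe sets. Between set 3 and set 2, 24 were higher in set 3 and 4 lower, against 36.8% of all called, 14.8% higher and 22% lower. Between set 3 and set 1 only col-102 and col-127 were called, both higher in set 3, against 1.35% of all, 0.373% higher and 0.973% lower. Both genes were under the array medians in set 1 and passed the filter only through the other sets. Neither was called with no filter, so their share is not read as a trait of the family.

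The direction of the difference between set 2 and set 1 was read by level class. In the very high class 11 of 17 genes were lower in set 2 than in set 1, none was higher, and the median difference was -0.30. In the high class 6 of 25 were lower and 1 was higher, with a median of -0.14. In the moderate class 8 of 36 were lower and 3 were higher, with a median of -0.19.

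The very high class moved with all bright probe sets of the array. Of the 504 tested probe sets with a mean signal of 5000 or more, 62.7% were lower in set 2 than in set 1 and 2.18% were higher, with a median of -0.27. After quantile normalization, which gives every array the same distribution of signals, 18.5% of them were lower and 10.9% were higher, and the very high col genes had a median of -0.02 with 2 lower and 3 higher. Under that normalization the whole family split into 18 lower and 7 higher, against 25 and 4 on the deposited scale. Of all tested probe sets 15% were then lower and 14.4% higher. The moderate class had 11 of 36 lower and 3 higher with a median of -0.23, against 13.4% lower and 14.5% higher among all tested probe sets with a mean signal under 1000. On the deposited scale those shares were 8.64% and 22.1%. Quantile normalization also turned the sign of some genes: the difference between set 2 and set 1 went from -0.23 to 0.03 for col-160 and from -0.21 to 0.04 for col-93. Of the 30 genes called for any set difference, quantile normalization kept 12 of 12 moderate genes, 6 of 8 high genes and 1 of 10 very high genes.

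**Figure D3:**
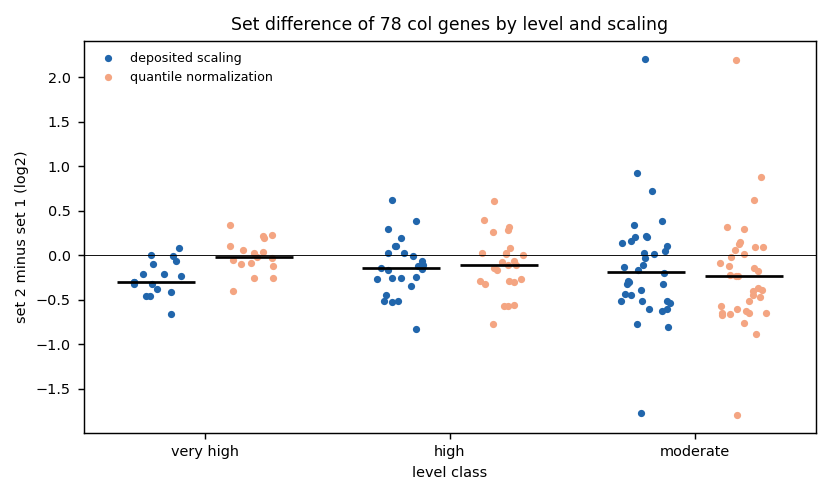
Difference between set 2 and set 1 (log2) of the 78 tested col genes by level class, on the deposited scale and after quantile normalization, with a point for each gene and a line at the median of the class. The very high genes move from a median of -0.30 to -0.02, and the moderate genes stay below 0 with medians of -0.19 and -0.23.

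The very high gene that kept its call was col-145. Its signals in set 1 were 12872, 12002, 12782 and 14491 at codes 1 to 4, those of set 2 were 9098, 6375, 8411 and 9324, and those of set 3 were 9406, 14440 and 12660 at codes 1, 3 and 4. All set 2 arrays were below all others. The adjusted p of the set test was 0.0015 in limma, and 0.022 after quantile normalization. For col-43, col-17, col-125, col-107, col-41 and col-147 the call on the deposited scale (adjusted p 0.0028, 0.013, 0.0040, 0.0038, 0.0032 and 0.0069) was lost under quantile normalization (0.29, 0.84, 0.19, 0.075, 0.058 and 0.45). The call of col-17 was also lost without the set 2 array of code 1 (0.069).

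Among the moderate genes, col-99 fell in set 2 in both strains. Its signals were 298, 404, 308 and 316 in set 1, 198, 215, 170 and 169.8 in set 2, and 293, 311 and 338 in set 3. The arrays of set 2 did not overlap the others. The set test gave an adjusted p of 0.00081 in limma and 0.0007 after quantile normalization, and the difference between set 2 and set 1 was -0.81.

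The cuticle family genes col-68, col-91 and col-150 also had their lowest level in set 2. The signals of col-91 were 444, 434, 645 and 649 in set 1, 370.5, 326, 313 and 513.8 in set 2 and 514.1, 708 and 864 in set 3. For col-91 set 2 thus overlapped set 1. The signals of col-68 were 357 to 416 in set 1, 249.7 to 290.4 in set 2 and 403 to 432 in set 3, with no overlap of set 2 and the rest. Those of col-150 were 231, 182, 374 and 312 in set 1, 123, 142, 53.7 and 38.4 in set 2 and 217, 299 and 292 in set 3. Set 2 was lowest here in both strains, and lower in the marker strain than in the HLH strain. All set 2 signals of col-150 were under the array medians (180.3 to 208), so it passed the filter only through arrays outside set 2. The high gene col-34 had 4647 to 5252 in set 1, 3404 to 4001 in set 2 and 4766 to 5766 in set 3, with an adjusted p of 0.0032 in limma and 0.031 after quantile normalization.

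Over all 78 genes, 11 had every set 2 array below every array of sets 1 and 3, against 6.89% of all tested probe sets, and 2 had every set 2 array above, against 12.4%. The 11 were col-20, col-34, col-41, col-66, col-68, col-80, col-99, col-142, col-145, col-149 and col-150. Of these, col-20 and col-150 were under the array median on every set 2 array, so they passed the filter only through other arrays. The 2 were col-128 and col-182.

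The signals of col-128 were 1172, 1178, 959 and 691 in set 1, 1420.5, 1679, 1453 and 1475 in set 2 and 949.6, 1055 and 767 in set 3. Set 2 was the highest at each code. Its set test gave an adjusted p of 0.0041 in limma. For col-182 the signals were 627, 560.3, 618 and 544 in set 1, 1032, 1305, 694 and 935 in set 2 and 347, 609.6 and 449 in set 3, with an adjusted p of 0.0054. Both genes were called after quantile normalization as well.

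A separate pattern was seen in col-102 and col-127, which were lowest in set 1. The signals of col-102 in set 1 were under the floor of 16.7 at code 1 and 53.9, 77.8 and 66.9 at codes 2 to 4, those of set 2 were 141, 223, 287 and 235, and those of set 3 were 345, 411 and 231. Every set 1 array was below every other array. The set 1 signals were also under the array medians (180.3 to 208), so col-102 passed the filter only through arrays outside set 1. The share of all tested probe sets with such a separation of set 1 was not counted. The difference between set 3 and set 1 was 2.83 ± 0.38 with an adjusted p of 0.0099 in limma, and 0.052 without the set 3 array of code 3. The call was also lost with no filter. It thus depends on a filter that the gene passed only through the sets where it was higher.

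The signals of col-127 were 156, 124, 142 and 148 in set 1, 289.6, 278, 281 and 235 in set 2 and 282, 324 and 391 in set 3. Set 1 was again separate and under the array medians, so this gene too passed the filter only through arrays outside set 1. The difference between set 3 and set 1 was 1.19 ± 0.18 with an adjusted p of 0.014 in limma. That call was lost without the set 1 or set 3 array of code 3 (0.067 and 0.093) or of code 4 (0.077 and 0.12), while the call for any set difference was kept. The call between set 3 and set 1 was also lost with no filter, and over the alternatives its adjusted p reached 0.27. The stricter filter left out both col-102 and col-127. The pattern of col-113 differed from both: it was lowest in set 3, with a set test at an adjusted p of 0.022 that was lost without the set 3 array of code 1 (0.12) or of code 4 (0.075). This call was also lost after quantile normalization (0.066), and in 6 of 20 alternatives in all.

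**Figure D4:**
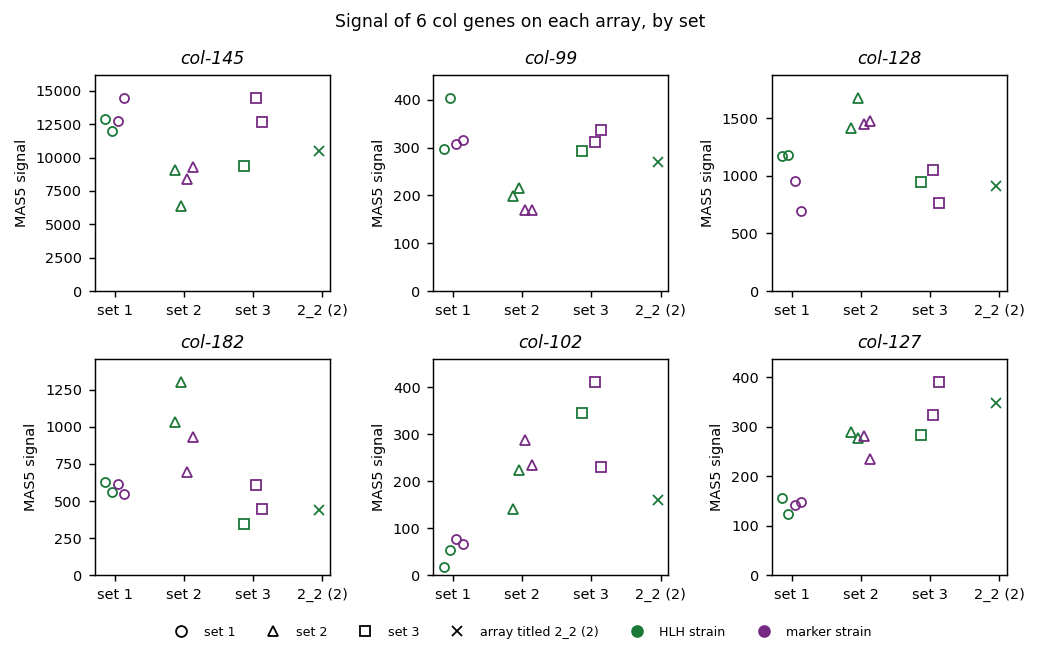
MAS5 signal of col genes on the 12 arrays by set, for the genes with the smallest p of 4 set patterns, with green symbols for the HLH strain, purple for the marker strain and the array titled 2_2 (2) drawn apart. Set 2 is lowest for col-145 and col-99, highest for col-128 and col-182, and set 1 is lowest for col-102 and col-127.

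The strains share no array, so the set difference could be read in each. Between set 2 and set 1, over all 78 tested genes, 41 were lower in both strains and 11 higher in both, against 35.1% and 42.5% of all tested probe sets, while 20 were higher in the HLH strain and lower in the marker strain and 2 were the other way. The median was -0.06 in the HLH strain and -0.32 in the marker strain. Between set 3 and set 1, 36 of 78 genes had the same sign in both strains. A test of the set difference between strains, added after the data were seen, called col-173, col-150 and col-71 (3.85%, against 0.811% of all tested probe sets), with adjusted p of 0.023, 0.024 and 0.041 in limma. None of these 3 calls held without any one of the set 1 or set 2 arrays of the HLH strain, the set 1 arrays of codes 3 and 4 or the set 3 array of code 4, with adjusted p from 0.051 to 0.35. Without the set 2 array of code 3 col-150 and col-71 were lost (0.057 and 0.22), without the set 3 array of code 3 col-173 and col-71 (0.089 and 0.072), and without the set 2 array of code 4 col-150 (0.082).

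**Figure D5:**
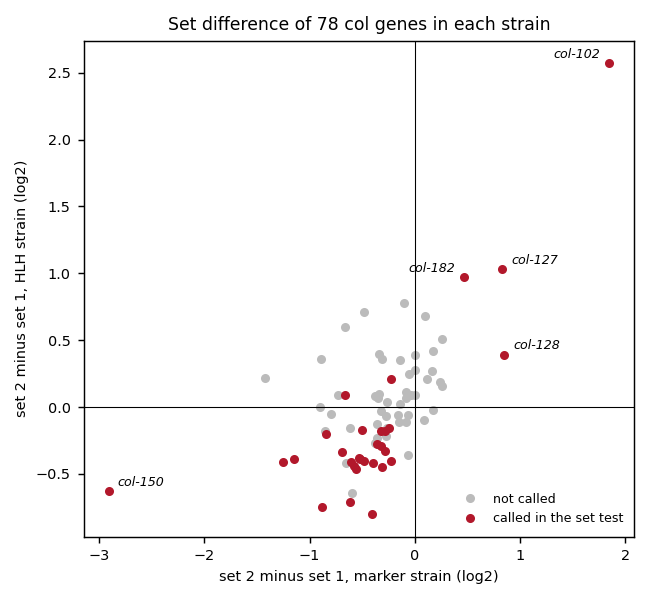
Difference between set 2 and set 1 (log2) of 78 col genes in the marker strain (horizontal axis) and the HLH strain (vertical axis), with genes called for any set difference in red. Most red points lie below 0 on both axes, and col-102, col-127, col-128 and col-182 lie above 0 on both.

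Marker genes of other cell types were read beside the sets. Between set 2 and set 1, 13.9% of all tested probe sets were lower and 19.2% higher, and of those with a mean signal of 5000 or more, to which several of the intestine and muscle markers but no neuron marker belong, 62.7% were lower. Of the intestine markers 4 of 8 were lower in set 2 than in set 1 and none was higher, and their summed signal was 50326 to 59418 in set 1, 39677 to 45970 in set 2 and 50798 to 68273 in set 3. Of the body wall muscle markers 5 of 7 were lower and none higher, with sums of 36416 to 47933, 32308 to 39543 and 38211 to 45915. Of the neuron markers 5 of 8 were lower and 1 was higher, with sums of 22286 to 27227, 17098 to 18454 and 22768 to 24635. The hypodermis markers had 1 higher, wrt-10 at 0.78, and 1 lower, wrt-2 at -0.40, of 10, with sums of 23162 to 36150, 23982 to 35796 and 27068 to 30872. These hypodermis sums include rol-6, which was higher in the HLH strain and widens each range. Sums by set without rol-6 were not taken. The part of these values in the set differences of the col genes was not tested.

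Genes that make, modify or switch on cuticle collagens were read beside the family. No gene of the lists below was called between the codes of either strain. The counts between set 2 and set 1 stand against 19.2% of all tested probe sets higher and 13.9% lower. These shares varied with signal level: 2.18% and 62.7% at a mean signal of 5000 or more, and 22.1% and 8.64% under 1000. After quantile normalization they were 10.9% and 18.5% at 5000 or more, and 14.5% and 13.4% under 1000. The part of signal level and scaling in the list counts was not tested. Of the named cuticle collagens, known from mutants of body shape, 6 of 18 tested were lower in set 2 than in set 1 and 2 were higher. The collagen genes sqt-3, dpy-13 and rol-8 fell by 0.37, 0.39 and 0.62, and dpy-2 and dpy-9 were higher by 0.42 and 0.38. The signals of sqt-3 and dpy-13 were above 5000 on every array.

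Of the enzymes that modify collagen 4 of 18 were higher in set 2 than in set 1 and 3 were lower. The lower 3 were phy-2, a catalytic subunit of prolyl 4-hydroxylase, at -0.46, pdi-2, the other subunit of that enzyme, at -0.47, and pdi-1, a protein disulfide isomerase, at -0.60. The higher ones included dpy-31, a procollagen C-proteinase, at 0.33, and tsp-15 and doxa-1, which act with the dual oxidase that cross-links the cuticle, at 0.49 and 0.47. None of the 18 was called between the strains.

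Of the regulators of cuticle genes 6 of 18 were higher in set 2 than in set 1, among them the transcription factors elt-1 (0.82), lin-29 (0.61) and nhr-23 (0.32), and 3 were lower, among them lin-28 (-0.63), a heterochronic RNA-binding protein. In the TGF-beta pathway of body size, whose signal acts in the hypodermis, 3 of 10 were higher and none lower: the Smad genes sma-3 and sma-4 at 0.71 and 0.92 and sma-10, a membrane protein of the pathway, at 1.19. The summed signal of the pathway was 11139 to 12251 in set 2, 8804 to 9703 in set 1 and 8104 to 8911 in set 3. Among other cuticle proteins 2 of 15 were called between the strains, dex-1 (1.67) and fbn-1 (0.86), both higher in the HLH strain. Of the basement membrane collagens emb-9 fell by 0.50 in set 2 and cle-1 was higher by 0.48.

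Col genes that lie next to each other in the RefSeq gene table were set side by side. In 10 runs of neighbours among the 128 genes there were 6 adjacent pairs with both genes tested. Over the 11 arrays, the correlation of deviations from the code means was 0.95 for col-141 and col-142, 0.76 for col-159 and col-160, 0.75 for col-39 and col-80, 0.68 for col-149 and col-150, 0.67 for col-17 and col-20 and 0.59 for col-20 and col-73. The median over all 3003 pairs of tested col genes was 0.27. The values share the same 11 arrays and their scaling, and probes that match both neighbours were not tested.

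The pair with the highest value had much the same profile. The signals of col-141 were 817, 583 and 799 at code 1 and 521, 528 and 852 at code 2, and those of col-142 were 713, 416 and 604 and 433, 421 and 713. In both genes the set 2 array was the lowest at code 1, and at code 2 the array titled 2_2 (2) was the highest.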

How the data were processed

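Per the labels' protocols, total RNA from lysates was made into biotinylated cRNA. The values the authors deposited are linear array intensities, with 1 signal for each probe set on each array. The submitters' processing notes name MAS5. Details of its run were not given in the sources used here. Deposited scaling was kept: the trimmed mean was 500.1 on every array. The 77 control probe sets were left out of 22625. Signals under the 10th percentile, 16.7, were set to that value before taking log2. limma 3.58.1 in R 4.3.3 (lmFit, eBayes with an intensity trend) was fitted to all 12328 tested probe sets, once with 4 code groups (8 residual degrees of freedom) and once with sets and codes over 11 arrays (5 residual degrees of freedom). Tests were two-sided. The scripts were tested on simulated data.

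Set numbers were taken to pair the arrays because all 15 pairs of arrays with the same number, without the array titled 2_2 (2), had correlated deviations (0.31 to 0.79). The 30 pairs with different numbers and different codes ranged from -0.69 to 0.53 with a median of -0.39, and 8 of them were over 0.1. The labels name no shared batch.

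The members, gene lists and tests were chosen with earlier results of these data known. The genes named are, in each comparison of codes or strains, the called ones, or the 4 with the smallest p where fewer were called. In each set pattern they are up to 6 called genes with the smallest p, and by level the 8 brightest and the 4 dimmest tested. To these were added col-2, col-12, col-17, col-19 and col-99. Other genes (those called only with the block, those whose arrays did not overlap, neighbours, and genes with unequal probe sets) were chosen after their values were seen. List members are named from the called ones. Alternatives were a log2 offset, quantile normalization, other filters, no trend, the set block and leaving out arrays. No sequences were used here. The test of set differences between strains was added after the data were seen. Gene names were updated through the RefSeq table of assembly WBcel235, used only for names and neighbour order, since no source used here names the build the probes were designed on. The design text calls the replicates biological, and p-values measure the spread between these arrays.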

Additional observations from a re-analysis of the deposited data

Results flagged for a closer look

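A set difference that differed between the strains was found by limma in 3 of 78 col genes (3.85%), against 0.811% of all tested probe sets, and each is listed because the test of that difference gave an adjusted p under 0.05. For col-173 (adjusted p 0.023) the set 3 array of the HLH strain stood at 629 and those of the marker strain at 1422 and 1286, while set 1 lay between 816 and 1042 in both strains. For col-150 (0.024) the set 2 arrays were 123 and 142 in the HLH strain and 53.7 and 38.4 in the marker strain. For col-71 (0.041) they were 660.0 and 517 against 207 and 264. In the HLH strain set 3 is a single array in this test. These calls are fragile: the counts under other settings are given with the processing.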

How the results depend on the processing

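Among the genes called between the strains or between set 3 and set 1, none changed sign in the alternatives run. Called genes did change sign under quantile normalization: for set 2 against set 1 col-160 (-0.23 to 0.03) and col-93 (-0.21 to 0.04), and for set 3 against set 2 col-43 (0.32 to -0.02), col-147 (0.26 to -0.04), col-17 (0.28 to -0.01) and col-119 (0.28 to -0.04). For set 3 against set 2 col-119 and col-180 also did so in HLH arrays only. Of genes not called, col-73 (-0.06) and col-146 (0) were called higher in set 2 after quantile normalization, at 0.23 and 0.22, and in HLH arrays only col-71 was called higher in set 2 and col-173 lower in set 3 than in set 2, against their signs over both strains. No col gene was called between codes, or for a code difference between the strains, under any of them, the replicate block included. For HLH against marker strain the count of 3 became 15 with the replicate block without the array titled 2_2 (2), 13 with that array placed in set 3, 1 with no filter, and 1 to 5 without single arrays (1 without the set 1 array of code 2 or the set 3 array of code 4, 5 without the set 2 array of code 3). For any set difference the count of 30 became 12 in HLH arrays only and 18 with no filter. For set 2 against set 1 the count of 29 became 13 in HLH arrays only, 16 with the array titled 2_2 (2) in set 2 and 14 with no filter. For set 3 against set 1 the count of 2 became 1 in HLH arrays only, 7 in marker arrays only, 0 with no filter, 0 with the stricter filter and 0 to 7 without single arrays (7 without the set 3 array of code 1, 0 without the set 3 array of code 3, and 1 without the set 1 array of code 3 or the set 1 or set 3 array of code 4). For set 3 against set 2 the count of 28 became 5 in HLH arrays only, 16 with no filter and 15 to 33 without single arrays (15 without the set 3 array of code 3, 18 without the set 2 array of code 4). For set differences between strains the count of 3 became 0 with the array titled 2_2 (2) in set 2, 7 with it in set 3, 0 with no filter, 0 with no intensity trend and 0 to 3 without single arrays. With no filter the dim probe sets enter the fit, and the cause of the other changes was not tested. The set difference between strains could not be fitted without the set 3 array of code 1. Low signals are close to background, so the 50 dim genes give levels only.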

Other observations

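The array titled 2_2 (2) was compared with the 13 col genes whose set 2 arrays did not overlap those of sets 1 and 3. Its signal lay within the range of the set 2 arrays for 1 of the 13, within the range of the arrays of sets 1 and 3 for 7, and within neither for 5. The set of this array cannot be read from its values here and was left uncertain.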
